A study of Homo sapiens with 6 samples.

Results

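The 10 genes described here burn fatty acids in the mitochondrion or are switched on by the fatty acid receptor PPARα: PPARA, CPT1A, CPT2, ACADVL, ACADM, HADHA, HADHB, PDK4, ANGPTL4 and PLIN2. They were chosen by name for this pathway, and each symbol matched a single row, so they are 10 of the 58735 genes in the count table. The libraries come from Het1A, a line of human oesophageal epithelial cells immortalised with the SV40 T antigen. Both groups of 3 were held in 1% serum after 48 h of starvation, and RNA was taken 24 h after the last treatment of day 5. The bile acid group met medium of pH 4.0 with 100 µM mixed bile acids for 10 min on each of 5 days, a laboratory stand-in for reflux of stomach and bile fluid. The control group received 0.1% DMSO, and the labels do not say whether its medium was acidified, so acid and bile acids cannot be told apart. It is 1 cell line without stroma or neighbouring tissue, and the labels call the replicates biological without saying whether they were separate cultures. P-values measure the spread between these libraries.

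Long fatty acids enter the mitochondrion as carnitine esters. CPT1 enzymes on the outer membrane load the carnitine and CPT2 on the inner membrane removes it, after which acyl-CoA dehydrogenases and the trifunctional protein shorten the chain in repeated turns to acetyl-CoA. PPARα is a nuclear receptor for fatty acids that pairs with RXR on direct repeats of the hexamer AGGTCA and raises many genes of this route, most of all in liver, heart and muscle. PDK4, ANGPTL4 and PLIN2 are widely used readouts of PPAR activity, since fatty acids raise them in many cell types.

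The sequences shown here are the start-site regions that these genes would be read from. In RefSeq (GRCh38.p14) all 10 genes had a window of 300 bases, from 250 before to 50 after the start, and ACADVL and PPARA had a pair each, which made 12 windows. HADHA and HADHB encode the subunits of the trifunctional protein and lie head to head, so their windows share a stretch of 194 bases between the starts. It is printed on the plus strand of chr2:26244689-26244882, 68.6% of it G or C, with capitals on the GC box GGGCGG, which lies on the minus strand.
HADHA and HADHB shared stretch: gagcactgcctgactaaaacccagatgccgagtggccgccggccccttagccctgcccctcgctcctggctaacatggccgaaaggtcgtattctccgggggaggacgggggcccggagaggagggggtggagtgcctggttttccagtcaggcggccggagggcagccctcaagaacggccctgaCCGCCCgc
GGGCGG was in 10 of the 12 windows and in 45% of all 35116 RefSeq windows of this length, on either strand.

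The PPAR motif was searched on both strands as AGGTCA repeated with 1 base between the copies. The hexamer AGGTCA itself was in 0 of the 12 windows and in 13.8% of all windows. The closest approach to the repeat in these genes had 3 mismatches, in the second ACADVL window, and 20.9% of all windows come as close. The best stretches for ACADVL and the 3 target genes are printed, ACADVL for its fewest mismatches and the others as the usual PPAR readouts. Capitals are letters that match the repeat, and the base between the copies is in lower case. Each stretch is read along its gene's own strand, which for PDK4 and PLIN2 is the minus strand of the chromosome.
ACADVL, chr17:7219944-7219956: gGGTCAgAGcTCg
PDK4, chr7:95596712-95596724: cGGTgccAGGgCA
ANGPTL4, chr19:8364053-8364065: cGGcCAcAGGcCc
PLIN2, chr9:19127580-19127592: cGGgCttgGGaCA
PDK4 and ANGPTL4 had 4 mismatches and PLIN2 had 5. At most 4 mismatches were found in 8 of the 12 windows and in 75% of all windows. These are matches of letters in a short window and say nothing of binding, there or elsewhere.

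The libraries held 21006677 to 28497721 counted reads, and 3 counts correspond to 0.105 to 0.143 counts per M counted reads of a library. Values called CPM below are counts per M reads after scaling by TMM factors, which ran from 0.851 for control 2 to 1.069. The keratins KRT7, KRT8 and KRT18 were abundant, while KRT5, KRT14 and TP63, which define basal squamous cells, were at or near 0. KRT17, another keratin of the same list, was present at 46 to 143 CPM. Control 2 stood apart from every other library, with 19101 genes detected against 24174 to 25337. Its summed epithelial markers, VIM counted among them, reached 2758 CPM against 1122 to 1791. Its log2 CPM differed from the mean of controls 1 and 3 with an SD of 1.32 over all genes tested. The fold changes of the 10 genes are therefore also given without it. Of the adipocyte list ADIPOQ was 0 in all libraries, and the list's sum was 22.1 to 32.7 CPM in controls and 30.6 to 35.8 after bile acids. As these are bulk samples, fewer cells of a type and less RNA per cell cannot be told apart.

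No gene of the 10 passed the test. In edgeR's quasi-likelihood test with Benjamini-Hochberg adjustment over 17743 genes, 0 of 10 were called at an adjusted p under 0.05, against 0% of all genes, and 0 had an unadjusted p under 0.05, against 3.31% of all genes. DESeq2 called 0.107% of genes and 0 of the 10. Positive log2 fold changes, bile acid over control, were found for 8 of the 10 and for 48.8% of all genes, with a median of 0.16 against -0.01. Without control 2 the count was again 8 of 10, beside 50.8% of all genes, and the median was 0.22. The epithelial marker list, which also holds VIM, went the same way only without control 2. With all libraries 3 of its 9 tested genes were positive and the median was -0.21. Without control 2, 7 of the 9 were positive with a median of 0.29, from 0.67 for VIM to -0.20 for KRT17. In edgeR 4 of the 9 then had an unadjusted p under 0.05. The part of these markers in the result was not tested. Without control 2 edgeR called 0.00547% and DESeq2 0.979% of all genes, and neither called any of the 10. The 10 were all expressed enough to be tested.

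**Figure D1:**
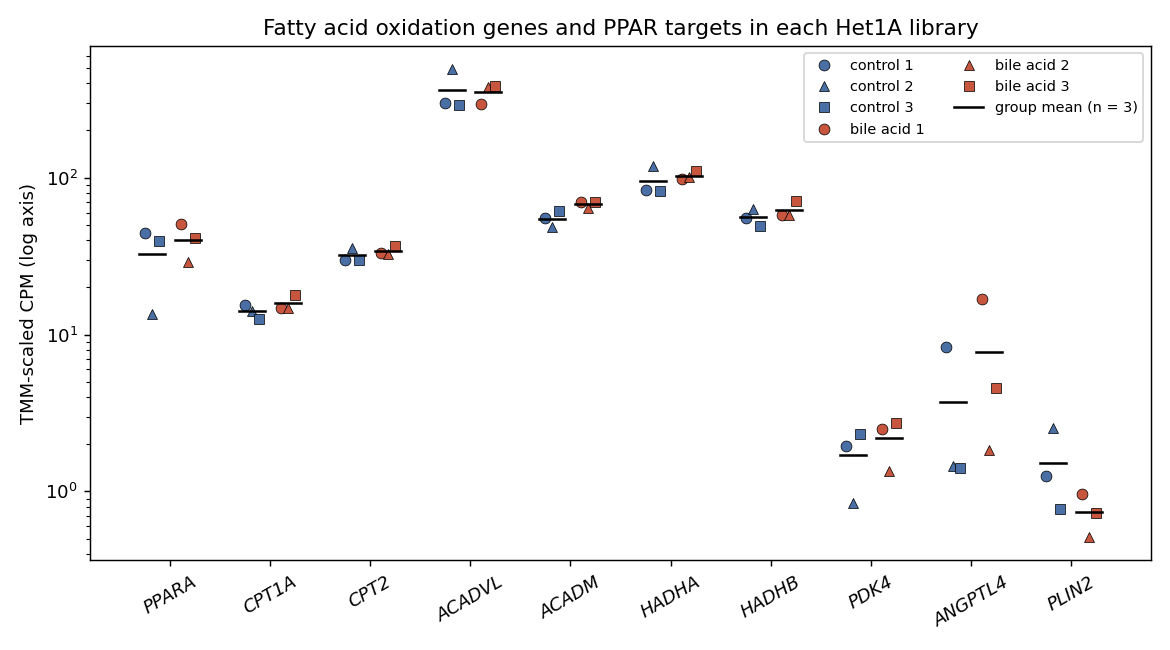
TMM-scaled CPM (log axis) of the 10 genes in each library, controls and bile acid libraries side by side and numbered by replicate, with a bar at each group's mean. ACADM is the gene whose 3 bile acid libraries all lie above its 3 controls, and ANGPTL4 spreads most widely within both groups.

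Levels differed far more between the genes than between the groups. Per kilobase of gene model, the mean over the 6 libraries was 73.4 CPM for ACADVL, 22.6 for HADHA, 13.8 for HADHB and 12.8 for ACADM. Lower down came CPT2 at 3.17, PPARA at 2.75, ANGPTL4 at 2.31 and CPT1A at 2.27 CPM per kilobase. PDK4 was at 0.432 and PLIN2 at 0.221 CPM per kilobase. Thus the spiral enzymes were abundant. Of the usual PPAR readouts PDK4 and PLIN2 were low, while ANGPTL4 stood beside CPT1A. Per kilobase, ACADVL exceeded 96.9% of the genes tested, ANGPTL4 40.2%, PDK4 14.0% and PLIN2 7.4%. Neighbours in this order such as HADHB and ACADM, or ANGPTL4 and CPT1A, did not differ beyond the spread of their libraries.

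PPARA, the receptor (ENSG00000186951, chr22:46150521-46243756, plus strand), was read at 44.5, 13.5 and 39.3 CPM in controls 1, 2 and 3. The bile acid libraries had 50.9, 28.9 and 41.1 CPM. The groups overlapped, and the low value belonged to control 2. The group means were 32.4 ± 16.6 and 40.3 ± 11 CPM (SD, n = 3), which made a log2 fold change of 0.31 (SE 0.44, 95% interval -0.71 to 1.33, adjusted p = 0.92 by edgeR). Without control 2 it was -0.05 (SE 0.21), so the direction rested on that library.

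CPT1A loads long fatty acids onto carnitine and is the step that malonyl-CoA blocks (ENSG00000110090, chr11:68754620-68844410, minus strand). It measured 15.5, 14.2 and 12.5 CPM in controls and 14.7, 14.8 and 17.8 CPM after bile acids. All 6 libraries lay close together and the groups overlapped. The means of 14.1 ± 1.49 and 15.8 ± 1.74 CPM (SD, n = 3) gave a log2 fold change of 0.16 (SE 0.20, 95% interval -0.30 to 0.63, adjusted p = 0.917 by edgeR), and 0.18 without control 2.

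CPT2, which regenerates acyl-CoA inside the mitochondrion (ENSG00000157184, chr1:53196429-53214197, plus strand), had 30.1, 35.8 and 30.1 CPM in controls. After bile acids it had 33.3, 32.6 and 36.9 CPM. Controls 1 and 3 lay below every bile acid library and control 2 lay among them. Its log2 fold change was 0.10 (SE 0.17, 95% interval -0.31 to 0.51, adjusted p = 0.932 by edgeR), and 0.20 without control 2. Other genes overlap 12% of its exon length, C1orf123 among them, and the strand setting of the counting is not known, so reads of such genes cannot be told apart there.

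ACADVL is the dehydrogenase of the inner membrane that starts each turn on very long chains (ENSG00000072778, chr17:7217125-7225273, plus strand). Controls gave 301, 491 and 292 CPM, and bile acid libraries 296, 378 and 384 CPM. Control 2 was the highest of all 6 libraries. The means were 361 ± 112 and 353 ± 49.4 CPM (SD, n = 3). The log2 fold change was -0.03 (SE 0.26, 95% interval -0.65 to 0.58, adjusted p = 0.986 by edgeR) and turned to 0.26 without control 2.

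ACADM, the medium-chain dehydrogenase (ENSG00000117054, chr1:75724347-75787575, plus strand), was the 1 gene of the 10 with no overlap between groups. It measured 55.1, 48.8 and 61.0 CPM in controls and 69.6, 64.1 and 70.2 CPM after bile acids. All bile acid libraries were above all controls, as they were for 5.29% of all genes tested. None of the 10 had all its bile acid libraries below all controls, a pattern of 4.89% of all genes. The means were 54.9 ± 6.10 and 68 ± 3.38 CPM (SD, n = 3), which is a log2 fold change of 0.31 (SE 0.17, 95% interval -0.10 to 0.71, adjusted p = 0.911 by edgeR). Without control 2 it was 0.24 with an adjusted p of 0.723.

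HADHA and HADHB carry the hydratase, hydroxyacyl-CoA dehydrogenase and thiolase steps of the trifunctional protein, and share the promoter stretch printed above. HADHA (ENSG00000084754, chr2:26190635-26244726, minus strand) had 84.1, 119 and 82.5 CPM in controls and 97.5, 101 and 111 CPM after bile acids. HADHB (ENSG00000138029, chr2:26243170-26290468, plus strand) had 55.2, 62.9 and 49.4 CPM in controls and 57.5, 58.2 and 71.4 CPM after bile acids. For both, control 2 was the highest control and made the groups overlap. The log2 fold changes were 0.12 (SE 0.21, 95% interval -0.37 to 0.60, adjusted p = 0.932) for HADHA and 0.16 (SE 0.19, 95% interval -0.28 to 0.60, adjusted p = 0.915) for HADHB, both by edgeR.

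Without control 2, HADHA had a log2 fold change of 0.32 (SE 0.13) with an unadjusted p of 0.0335 and an adjusted p of 0.576 by edgeR, beside 7.98% of all genes with an unadjusted p under 0.05. HADHB had 0.26. The ratio of HADHA to HADHB per kilobase was 1.49, 1.85 and 1.63 in controls and 1.66, 1.70 and 1.52 after bile acids. The control range of that ratio enclosed all 3 bile acid values.

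PDK4 shuts pyruvate dehydrogenase so that cells spare glucose and use fat (ENSG00000004799, chr7:95583499-95596491, minus strand). It was read at 1.94, 0.840 and 2.34 CPM in controls, from 54, 15 and 55 counts. After bile acids it was at 2.5, 1.35 and 2.75 CPM, from 70, 37 and 79 counts. Library 2 was the lowest of each group and the groups overlapped. The log2 fold change of 0.36 (SE 0.49, 95% interval -0.80 to 1.51, adjusted p = 0.92 by edgeR) shrank to 0.05 without control 2. The 15 counts of control 2 have a Poisson interval of 8.40 to 24.7, which covers counting error only.

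ANGPTL4 is a secreted inhibitor of lipoprotein lipase that fatty acids raise through PPARs (ENSG00000167772, chr19:8363289-8374373, plus strand). Controls had 8.34, 1.46 and 1.41 CPM, from 232, 26 and 33 counts. Bile acid libraries had 16.8, 1.83 and 4.59 CPM, from 470, 50 and 132 counts. Library 1 was the highest in each group, and the highest library exceeded the lowest 5.93 times among controls and 9.17 times after bile acids.

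The means of ANGPTL4, 3.73 ± 3.99 and 7.73 ± 7.95 CPM (SD, n = 3), stood 2.05-fold apart with an interval of 0.436 to 9.62. The log2 fold change was 1.03 (SE 0.95, adjusted p = 0.911 by edgeR). Without bile acid library 1 it turned to -0.22, without control 1 it was 2.44 with an unadjusted p of 0.037, without control 2 it was 0.66 and without control 3 it was 0.65. Leaving out bile acid library 2 gave 1.51, and leaving out bile acid library 3 gave 1.31. Among the libraries left out 1 at a time, only bile acid library 1 turned the sign of ANGPTL4.

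PLIN2 coats lipid droplets and follows the lipid load of a cell (ENSG00000147872, chr9:19108375-19149290, minus strand). It was read at 1.26, 2.52 and 0.767 CPM in controls, from 35, 45 and 18 counts. After bile acids it was at 0.963, 0.512 and 0.730 CPM, from 27, 14 and 21 counts. Control 3 lay between the bile acid libraries, and control 2 was the highest. The log2 fold change was -1.03 (SE 0.57, 95% interval -2.37 to 0.32, unadjusted p = 0.115, adjusted p = 0.911 by edgeR), and -0.46 without control 2. The fewest reads were 14, with a Poisson interval of 7.65 to 23.5.

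**Figure D2:**
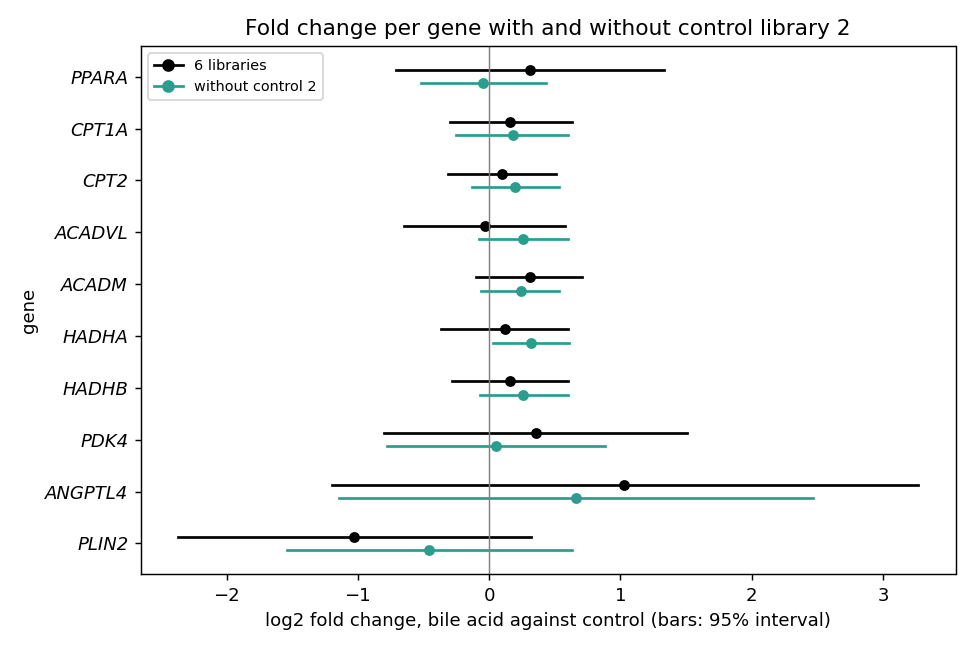
Log2 fold change (bile acid over control) of each of the 10 genes with its 95% interval from edgeR, with all 6 libraries and without control 2. With all libraries every interval crosses 0, from ANGPTL4 at 1.03 to PLIN2 at -1.03, and PPARA and ACADVL change sign when control 2 is left out.

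Control 2 moved the members in different directions. Against the mean of controls 1 and 3 its log2 CPM was lower by 1.63 for PPARA, by 1.27 for PDK4 and by 1.2 for ANGPTL4. For ANGPTL4, though, control 1 was the library that stood apart, at 8.34 CPM. There control 2 at 1.46 CPM lay beside control 3 at 1.41 CPM. Control 2 was higher by 1.29 for PLIN2, by 0.73 for ACADVL and by 0.52 for HADHA. CPT1A differed by 0.03. It lay below that mean for 4 of the 10 genes and for 52.8% of all genes tested. The part of this library's difference in each result was measured only by leaving it out, as above.

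**Figure D3:**
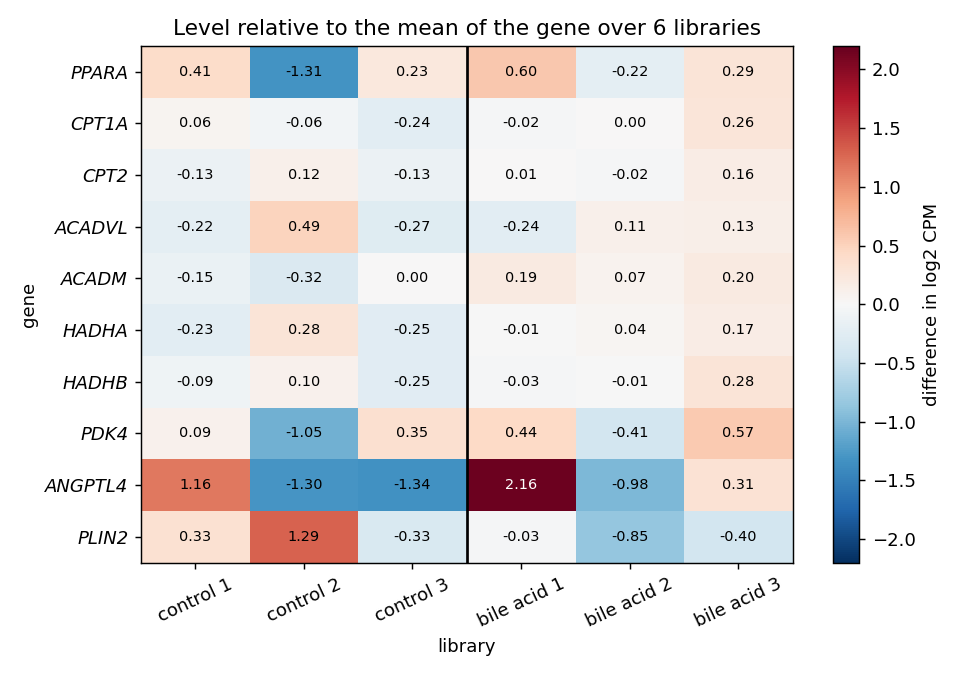
Log2 CPM of each gene in each library relative to that gene's mean over the 6 libraries, as coloured cells with the value printed. Control 2 holds the lowest PPARA and PDK4 and the highest ACADVL, HADHA and PLIN2.

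Some of the spiral and carnitine enzymes followed similar patterns over the 6 libraries, while ACADM and ACADVL stood farther from several of the others. Likeness was measured as the root mean square difference of log2 CPM, each gene relative to its own mean, and small values mean alike. Genes that vary little between libraries also come out alike by this measure. The percentage of genes nearer is counted from the first gene named of each pair. CPT2 and HADHB were the closest pair at 0.073, with 0.481% of genes nearer, then CPT1A and HADHB at 0.091 and CPT2 and HADHA at 0.093. HADHA and HADHB, for all their shared start region, differed by 0.104 and 1.09% of genes were nearer. ACADVL and ACADM, by contrast, differed by 0.392 with 45.2% of genes nearer, ACADM and HADHA by 0.28 with 32.6%, and CPT1A and ACADVL by 0.276 with 29.2%. PPARA and PDK4 differed by 0.233 with 4.77% of genes nearer, and ANGPTL4 and PLIN2 were the farthest pair at 1.512. All points come from the same 6 libraries, and control 2 enters each value.

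Among 14335 protein-coding genes, the nearest to CPT1A were ZNF780B at 0.046 and IVD at 0.051, and to HADHA they were MRPS27 at 0.029 and NPTN at 0.033. IVD is an acyl-CoA dehydrogenase of leucine breakdown, and MRPS27 is a protein of the mitochondrial ribosome. The nearest to PDK4 were MPDZ at 0.110 and SIPA1L3 at 0.128. ANGPTL4 had NDRG1, a gene raised by low oxygen, at 0.240 and MXRA5 at 0.310. PLIN2 had GPR89B at 0.180 and PPAN at 0.189.

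The relatives of each gene show which isoform held the largest share of the family's RNA, not which protein was active. Shares were taken per kilobase within each family, as mean ± SD over 3 libraries. CPT1C, a brain-type isoform with little carnitine transferase activity, made up 83.3% of CPT1 in controls and 78.0% after bile acids, and CPT1A 15.0% ± 2.91 and 19.7% ± 2.40. PLIN3 made up 85.8% ± 2.21 and 92.0% ± 1.01 of the perilipins, while PLIN2 was at 1.36% ± 1.14 and 0.423% ± 0.121. PPARD was the main receptor at 72.5% and 73.7%, with PPARA at 13% ± 4.37 and 12.7% ± 3.51. PDK2 led the kinases at 54.3% and 50.6%, and PDK4 was at 3.67% ± 0.991 and 3.78% ± 0.725.

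Among the chain-length dehydrogenases ACADVL took 68.7% ± 0.357 in controls and 71.8% ± 1.32 after bile acids. ACADM took 11.4% ± 3.99 and 14.3% ± 2.30, and ACADS, the short-chain enzyme, 19.3% ± 4.30 and 13.4% ± 1.44. These shares are a description and were not tested. Within a family a larger share of one gene means a smaller share of another.

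**Figure D4:**
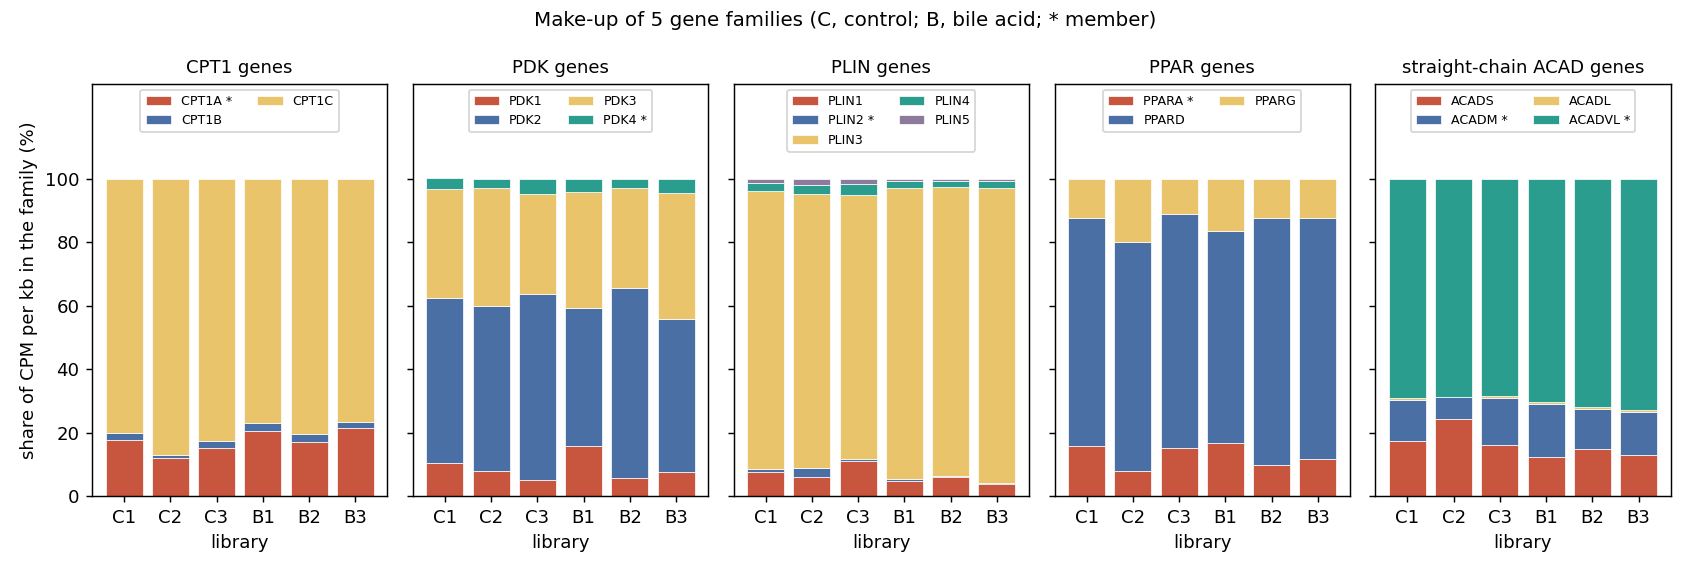
Share of each gene in its family (percent of the family's CPM per kilobase) in each library, for the CPT1 enzymes, the dehydrogenases, the PPARs, the kinases and the perilipins. CPT1C, ACADVL, PPARD and PLIN3 hold most of their families in every library, PDK2 ranges from 43.7% to 59.9% of the kinases, and PLIN2 ranges from 0.325% to 2.67% of the perilipins, with the highest share in control 2.

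To set the pathway around the 10 genes, 8 lists of 130 genes were used, of which 120 could be tested. The 10 are themselves on these lists, so the list counts and medians include them. No listed gene was called by edgeR, as for all genes, and 69 of the 120 had positive log2 fold changes with a median of 0.08. With the trend of fold change with gene length removed it was 60 of 120 with a median of 0.00. An unadjusted p under 0.05 was found for 5 of the 120, against 3.31% of all genes: ACSL4, LPIN1, TXNIP, PLIN3 and PNPLA3. ACSL4, LPIN1 and PNPLA3 are named because of those values.

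Of the carnitine shuttle and acyl-CoA synthetases, 10 of 18 were positive and the median was 0.07. ACSL4, which activates arachidonic acid and other polyunsaturated fatty acids, had 68.1, 44.8 and 72.6 CPM in controls and 113.5, 93.2 and 122.2 CPM after bile acids. The groups did not overlap, and its log2 fold change was 0.83 (SE 0.24, unadjusted p = 0.0095, adjusted p = 0.911 by edgeR). ACSL3, an enzyme of lipid droplet growth, did not overlap either, with 111.7 to 179.1 CPM in controls and 198.1 to 206.5 CPM after bile acids, a log2 fold change of 0.45 and 0.29 without control 2. The carnitine carrier SLC25A20 was at 0.06, CRAT at -0.01, SLC27A4 at -0.23, CPT1B at 0.27 and CPT1C at -0.35 on the log2 fold change scale. Without control 2 these were -0.09 for SLC25A20, 0.16 for CRAT, 0.06 for SLC27A4, 0.08 for CPT1B and -0.12 for CPT1C.

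Of the 8 lists, mitochondrial β-oxidation had the median that moved most when control 2 was left out. Of 17 tested genes 7 were positive with a median of -0.11, and without control 2 it was 13 of 17 with a median of 0.15. ECHS1, the short-chain hydratase, was read at 164.8, 376.2 and 147.4 CPM in controls and 152.9 to 171.0 CPM after bile acids. ETFB, a subunit of the flavoprotein that takes electrons from the dehydrogenases, was read at 18, 64.8 and 15.6 CPM in controls and 17.5 to 23.2 CPM after bile acids. Both stood out in control 2 alone. With and without control 2 the log2 fold changes were -0.49 and 0.08 for ECHS1, -0.64 and 0.33 for ETFB, -0.68 and -0.13 for ACADS, -0.11 and 0.24 for HADH, and -0.15 and 0.15 for ETFA. ETFDH had -0.16 and 0.14, ECI1 had -0.52 and 0.00, and ACADL had 0.23 and -0.15.

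In the peroxisome, which shortens very long and branched chains, 9 of 15 genes were positive with a median of 0.18. SCP2, which carries the thiolase of branched chains, had 120.3 to 128.9 CPM in controls and 133.9 to 148.4 CPM after bile acids without overlap. Its log2 fold change was 0.18, with 0.30 for HSD17B4 and -0.22 for ACOT8, and none passed the test. Without control 2 HSD17B4 was at 0.12 and ACOT8 turned to 0.15.

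Receptors and their partners had 11 of 17 positive with a median of 0.10, and 7 of 17 with a median of -0.05 without control 2. PPARD, the receptor most abundant here, had 67.7, 41.4 and 64.9 CPM in controls and 69.0, 76.7 and 90.4 CPM after bile acids, a log2 fold change of 0.44 (SE 0.24, adjusted p = 0.911 by edgeR), and 0.26 without control 2. PPARG, known for fat cells, had 10.0 to 11.9 and 12.2 to 17.2 CPM, a log2 fold change of 0.39. PPARGC1A, the coactivator of mitochondrial programmes, went the other way at 1.57 to 1.87 and 0.804 to 1.07 CPM, a log2 fold change of -0.82 (SE 0.38, unadjusted p = 0.0665). LPIN1, a phosphatidate phosphatase that also acts as a coactivator, had 19.2 to 36.6 and 41.8 to 71.9 CPM, a log2 fold change of 0.84 (SE 0.32, unadjusted p = 0.0308, adjusted p = 0.911 by edgeR). These 4 were the only ones of the 17 tested without overlap between groups, beside 10.2% of all genes. Of the 17, 3 had all bile acid libraries above all controls and 1 had them all below. RXRA was at 0.21, RXRB at -0.01, MED1 at -0.20 and CREBBP at -0.15, and without control 2 at 0.30, 0.12, -0.50 and -0.44.

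Of the PPAR targets 26 of 33 could be tested, 18 of them positive, with a median of 0.13. FABP1, the liver fatty acid carrier, had 0 counts in every library. TXNIP, which binds thioredoxin and limits glucose uptake, had 413.8, 511.4 and 453.7 CPM in controls and 581.0, 646.3 and 790.8 CPM after bile acids. The groups did not overlap, and its log2 fold change was 0.55 (SE 0.21, unadjusted p = 0.0311, adjusted p = 0.911 by edgeR). TRIB3 was at -0.26, and -0.16 without control 2.

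Lipid droplet genes had 8 of 17 positive and a median of -0.02. PLIN3 had 77.8, 45.2 and 56.5 CPM in controls and 87.7, 79.3 and 97.6 CPM after bile acids, a log2 fold change of 0.56 (SE 0.24, unadjusted p = 0.0492, adjusted p = 0.911), opposite in sign to PLIN2. PNPLA3, a lipase of droplets, had 0.97 without overlap between groups and with an adjusted p of 0.911. PLIN5 and DGAT2, named because all their bile acid libraries lay below all controls, had -0.80 (unadjusted p = 0.0644) and -0.49 (unadjusted p = 0.0694). PNPLA2, the main triglyceride lipase, was at 0.14 and its inhibitor G0S2 at -0.73, and without control 2 at 0.09 and -0.21. DGAT2, which makes triglyceride, was then at -0.32 and PLIN5, a perilipin of oxidative tissues, at -0.83.

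The pyruvate dehydrogenase list had 9 of 13 positive with a median of 0.20. PDK1 had 19.3, 7.78 and 8.22 CPM in controls and 32.1, 8.55 and 16.2 CPM after bile acids, and as with ANGPTL4 library 1 was the highest of each group. Its log2 fold change was 0.68, with 0.20 for PDK2, 0.43 for PDK3, -0.29 for PDHA1, -0.38 for MPC1 and -0.39 for MPC2. Without control 2, PDK2 was at -0.03, PDK3 at 0.26, PDHA1 at 0.10, MPC1 at -0.04 and MPC2 at 0.08, so PDK2, PDHA1 and MPC2 changed sign, and the list's median was 0.09. The list of malonyl-CoA and AMPK control had 6 of 11 positive and a median of 0.00. There ACACA was at 0.29, ACACB, whose malonyl-CoA restrains CPT1, at -0.20, PRKAA1 at 0.16, PRKAG1 at -0.15 and STK11 at 0.00. Without control 2, ACACA was at 0.05, PRKAA1 at -0.04 and PRKAG1 at 0.03, and with the length trend removed 2 of the 11 were positive.

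**Figure D5:**
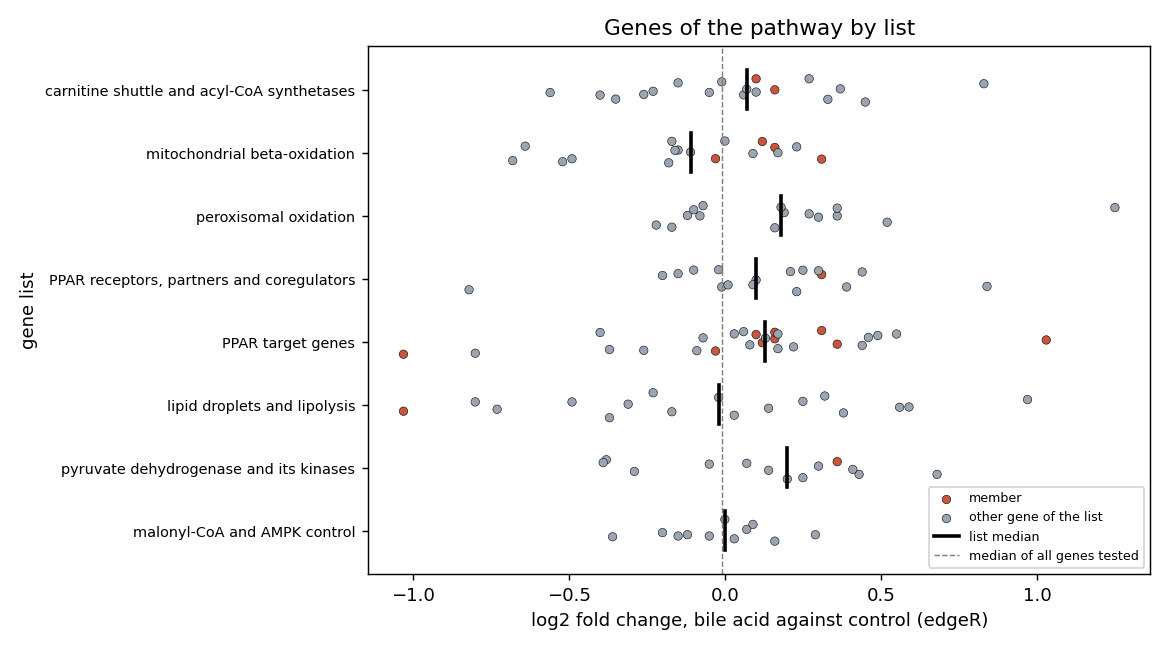
Log2 fold change (bile acid over control, edgeR) of every tested gene in the 8 lists, with a bar at each list's median and a line at the median of all genes tested, -0.01. List medians lie between -0.11 for mitochondrial β-oxidation and 0.20 for pyruvate dehydrogenase, within a spread of genes many times wider.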

How the data were processed

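RNA of 3 control and 3 bile acid libraries was sequenced with paired reads of 150 bp. The submitters' processing notes name the build GRCh38 and the tools HISAT2 2.0.5, featureCounts and DESeq2, without roles. Annotation and strand setting: not given in the sources used here. The deposited table holds read counts and FPKM for each gene and library. Normalized counts, a signal that is whole reads divided by a size factor, were also deposited by the authors: 100.0% of values came out whole within 0.001 over 31530 genes, and edgeR on these reads called 0 genes. These reads are not the same counts: their totals were 3.84% to 4.2% higher per library. Among the 10 genes the excess in a library reached 24%, for ANGPTL4. Per the file headers, a comparison table gives log2 fold changes, a test score and p-values, and a gene set table gives enrichment scores, p-values and other values such as term size. A further 2 value columns were not used.

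Counts were tested with edgeR 4.0.16 (R 4.3.3): TMM factors, filterByExpr, the quasi-likelihood test, Benjamini-Hochberg adjusted p under 0.05. Levels are CPM, or CPM per kilobase between genes, in place of the planned FPKM, whose denominator differed for control 2. Alternatives were DESeq2 1.42.0, limma 3.58.1 on counts and on log2 FPKM, other scalings and filters, a length correction, a replicate block and each library left out, and the script was tested on simulated data. The 10 genes and the lists were chosen with earlier results of these data known. Also named were 22 fixed genes, the 3 most abundant per list by FPKM, and the 2 nearest in pattern to each of CPT1A, HADHA, PDK4, ANGPTL4 and PLIN2. Some of the fixed genes are not reported here. Protein sequences were not used here. Replicate numbers were not used as a pairing in the main test.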

Additional observations from a re-analysis of the deposited data

How the results depend on the processing

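Under 22 alternatives no member was called. DESeq2 called 19 genes against 0 by edgeR (588 with an unadjusted p under 0.05), leaving out 1 library gave 0 to 1, and DESeq2 without control 2, chosen after seeing the data, gave 158, among them 2 of the 120 pathway genes, TXNIP and ACSL4. Leaving out any 1 library gave 0 members and 0 pathway genes by edgeR. ACADVL, at -0.03, changed sign with library size alone (0.03), without a filter (0.01), on rescaled FPKM (0.03, an added choice), without bile acid library 1 (0.08) and without control 2 (0.26 by edgeR and by DESeq2). CPT2 became -0.11 with the length trend removed and -0.05 with that and the replicate block. PPARA became -0.05 without control 2 by both tools, and ANGPTL4 -0.22 without bile acid library 1. The cause was not tested. Leaving out 1 library at a time, the log2 fold changes ran from -0.05 to 0.61 for PPARA, -0.16 to 0.26 for ACADVL and -0.22 to 2.44 for ANGPTL4. CPT1A, ACADM, HADHA, HADHB, PDK4 and PLIN2 kept their direction wherever they were tested.

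The replicate block gave 0 genes, 0 members and 0 pathway genes called. Same-numbered libraries correlated at 0.307, 0.382 and 0.098, and libraries of different numbers at -0.413 to 0.189. Whether the numbers mark a pairing is not stated in the labels and was not settled here. Under the block ANGPTL4 had the same log2 fold change, 1.03, with an SE of 0.35, an unadjusted p of 0.022 and an adjusted p of 0.768. With the length trend also removed, ANGPTL4 was at 1.15 (SE 0.31, unadjusted p = 0.00884, adjusted p = 0.644 by edgeR). PDK4, PLIN2, and for ANGPTL4 control 2, control 3 and bile acid library 2, rest on 14 to 79 counts, too few to show small differences.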

Other observations

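The authors' deposited gene set table holds 2196 terms, all 2196 with an adjusted p under 0.05. That level therefore sets no listed term apart from the other listed terms. Terms above that level, if any were tested, are not listed, so the share of tested terms that passed is not known. Among them, the authors' deposited table gives the term regulation of fatty acid beta-oxidation, of 18 genes, a normalized enrichment score of 1.69 and an adjusted p of 0.0444, and PPARA is the 1 of the 10 genes in its core. In the authors' deposited table the peroxisome proliferator activated receptor signaling pathway, of 23 genes, has a score of 1.69 and an adjusted p of 0.0334, with 0 of the 10 in its core. ACADM, HADHB and PPARA are in the core of fatty acid metabolic process in the authors' deposited table, which gives that term 359 genes, a score of 1.67 and an adjusted p of 5.16e-05. The authors' deposited comparison gives 9 of the 10 genes an adjusted p of 0.977 and ACADVL 0.998.

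The deposited FPKM of control 2 stand on another denominator than those of the other libraries. Computed from counts and gene lengths, the denominator was 0.999 times the library's total count for control 2, and 1.181 to 1.225 times for the other 5. FPKM of control 2 are therefore higher, relative to the other libraries, than its counts per total would give, for each of the 10 genes and all others.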
